A study of Mus musculus with 12 samples.

Results

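The caudal region of mouse embryos with a conditional knockout of Emg1 (Emg1 cKO) was compared with the same region of embryos homozygous for the loop-tail allele of Vangl2 (Vangl2 Lp/Lp), both at embryonic stage E10.5. RNA was sequenced from 3 libraries of each genotype, which are 6 of the 12 libraries of the study, and each library was a pool of 4 to 7 embryos. No wild type library entered the comparison; the level in the 3 wild type libraries is given beside some genes as a reference, without a test. The study set out to profile the caudal spinal region of mutants whose neural tube does not close. Neither the Cre driver, nor the deleted exons of Emg1, nor the mouse strains are named in the labels. All genes with more than 1 TPM (a level scaled for gene length and library size) in at least 3 of the 6 libraries were taken, which gave 17062 of the 53342 genes in the table. Of these, 15415 were above 1 TPM in all 6 libraries, 44 were above it in all 3 Emg1 cKO and in 0 Lp/Lp libraries, and 51 were the reverse. A further 669 genes lay just outside, above 1 TPM in exactly 2 of the 6 libraries.

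Emg1 encodes a nucleolar methyltransferase that modifies a pseudouridine in the RNA of the small ribosomal subunit and is needed to assemble that subunit. Vangl2 encodes a membrane protein of the planar cell polarity pathway, which orients cells within the plane of a tissue and drives the convergent extension that narrows and lengthens the neural plate. Lp is a missense allele of Vangl2, and homozygous embryos are known for a neural tube that remains unclosed along most of the body axis. At this stage the caudal region holds the tail bud, whose progenitors feed spinal cord and somites, the open or closing neural tube, the surface ectoderm over it, mesenchyme of the hindlimb and flank, gut and blood.

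The tissue label fitted the markers. T, a tail bud transcription factor, was between 30.3 and 63.4 TPM over the 6 libraries, and Tbx6, a factor of presomitic mesoderm, was between 11.3 and 32.9 TPM. The forebrain factors Otx2 and Six3 had 19 and 2 reads summed over the 6 libraries. Depth was 34472685 to 38560969 reads per library. Lp/Lp replicate 1 stood apart from the other Lp/Lp libraries: on the second principal component, with 21.9% of the variance, it lay at 22.65 against -16.67 and -10.19 for replicates 2 and 3. Its 50 tested neuron genes summed to 1700 TPM against 1010 and 1030, its Hoxc10, a posterior Hox gene, was 116 TPM against 216 and 226, and its Afp, a product of yolk sac endoderm, was 108 TPM against 2.98 and 1.44. Results that rest on this library are given with and without it. The first component, with 35.9% of the variance, separated the genotypes, from -17.65 to -12.98 in Emg1 cKO and from 12.75 to 19.22 in Lp/Lp. On the third, with 17.3%, Emg1 cKO replicate 1 lay at -17.92 against 10.42 and 10.16 for the other Emg1 cKO libraries. Its surface ectoderm list summed to 504 TPM against 604 and 632, and its T was 30.3 TPM against 39.7 and 45.4.

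Emg1 itself was at 48.0, 46.5 and 43.4 TPM in Emg1 cKO and at 63.5, 67.4 and 68.6 TPM in Lp/Lp, with 73.9 ± 5.72 TPM (SD, n = 3) in wild type. The Emg1 cKO libraries were all below the Lp/Lp libraries and still held most of the transcript. The difference was -0.57 ± 0.06 on the log2 scale (Emg1 cKO minus Lp/Lp, ± SE, as for all differences that follow), with an adjusted p of 0.0023 from edgeR's quasi-likelihood test after Benjamini-Hochberg adjustment over all 17062 genes, the test behind every adjusted p that follows. Vangl2 was at 82.1, 81.3 and 91.3 TPM in Emg1 cKO and at 76.1, 76.0 and 79.6 TPM in Lp/Lp, a difference of 0.10 ± 0.05 that missed the threshold of 0.05 (adjusted p = 0.41). A missense allele need not change the amount of its transcript, so this checks no label. Ctnnb1, which encodes beta-catenin, differed by -0.05 ± 0.04 (adjusted p = 0.64).

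In all, 292 genes passed the threshold, 1.71% of those tested: 137 were higher in Emg1 cKO (0.803%) and 155 were lower (0.908%). All 292 had TPM that did not overlap between the 3 and 3 libraries, which was also true of 22.8% of all tested genes. Most differences were small. A total of 151 were under 1.5-fold, 23 were at least 2-fold higher and 38 at least 2-fold lower, and the median size over called genes was 0.58 on the log2 scale. The median over all tested genes was -0.0022, with 90% of genes inside -0.47 to 0.47. The p-values measure the spread between pooled libraries, and in bulk tissue fewer cells of a type and less RNA per cell cannot be told apart. The number of calls depended on single libraries: it was 9 higher and 28 lower without Emg1 cKO replicate 2, 18 and 35 without Lp/Lp replicate 2, 30 and 53 without Lp/Lp replicate 3, 56 and 67 without Emg1 cKO replicate 1, and 347 and 224 without Lp/Lp replicate 1. A total of 31 genes, 8 higher and 23 lower, were called in all 6 fits that each left out 1 library (0.182%).

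**Figure D1:**
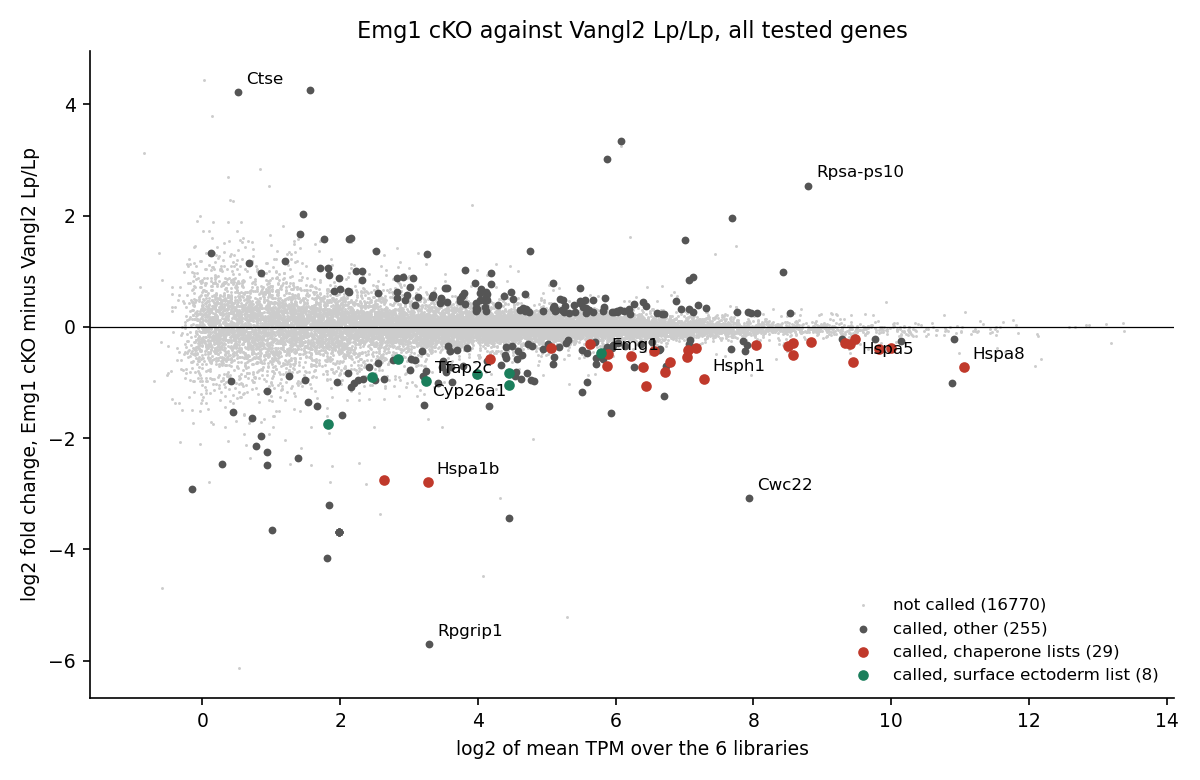
Log2 fold change (Emg1 cKO minus Vangl2 Lp/Lp) against the log2 of mean TPM over the 6 libraries for the 17062 tested genes, 1 point a gene. Grey points were not called. The 29 called genes of the chaperone lists (red), which were drawn up after values were seen, all lie below 0. So do the 8 called genes of the surface ectoderm list (green).

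The wild type libraries, which took no part in the calls, lay closer to Lp/Lp for most called genes. The wild type mean was nearer to Lp/Lp than to Emg1 cKO for 118 of the 137 genes that were higher (86.1%) and for 109 of the 155 that were lower (70.3%), against 62.9% of all tested genes. The exceptions include the largest difference in the comparison. Rpgrip1, a protein of the photoreceptor cilium, was at 0.45, 0.386 and 0.29 TPM in Emg1 cKO and at 20, 12.6 and 24.9 TPM in Lp/Lp, 52.2-fold apart (-5.71 ± 0.28, adjusted p = 1.6e-05), and its wild type mean was 0.376 TPM.

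Some genes from a list of endoplasmic reticulum chaperones were lower in Emg1 cKO. This list was drawn up after the values had been seen, so its counts describe and test nothing. Cells fold secreted and membrane proteins in the endoplasmic reticulum, and when unfolded proteins build up there the sensors ATF6, IRE1 and PERK raise the genes for its chaperones; the cytosol has a parallel system, the heat shock response, run by HSF1. In all, 53 genes for endoplasmic reticulum chaperones, disulfide isomerases and regulators of the unfolded protein response were tested. Of these, 17 were lower in Emg1 cKO (against 0.908% of all genes) and 0 were higher. The list's median was -0.17, against -0.0022 for all genes, and its summed level was 6760 to 7310 TPM in Emg1 cKO, 8470 to 8880 TPM in Lp/Lp and 8350 to 8480 TPM in wild type. The count of lower genes was 17 without Lp/Lp replicate 1 and without Emg1 cKO replicate 3, 12 without Emg1 cKO replicate 1, 8 without Lp/Lp replicate 3, 6 without Lp/Lp replicate 2 and 4 without Emg1 cKO replicate 2.

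Hspa5 encodes BiP, the main Hsp70 of the endoplasmic reticulum and the protein that holds the stress sensors inactive. It was at 515, 523 and 625 TPM in Emg1 cKO and at 840, 817 and 852 TPM in Lp/Lp (-0.63 ± 0.07, adjusted p = 0.0038), and the wild type mean was 806 TPM. Replicate 3 was the highest of the Emg1 cKO libraries and still far below the lowest Lp/Lp library. Sdf2l1, a BiP cofactor, had the largest called difference of the list: 47.0, 55.9 and 67.7 TPM against 117, 117 and 114 TPM (-1.07 ± 0.12, adjusted p = 0.0034). Dnajc3, an Hsp40 cochaperone that also restrains the sensor PERK, was at 45.0, 41.4 and 49.7 TPM against 71.0, 67.9 and 75.7 TPM (-0.69 ± 0.07, adjusted p = 0.0023). Pdia4, a disulfide isomerase, was at 312, 297 and 344 TPM against 443, 425 and 455 TPM (-0.51 ± 0.06, adjusted p = 0.0038). These 4 genes were called in all 6 fits that left out 1 library. Of them, Dnajc3 was picked by the rule for named genes and the others after their values were seen.

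Xbp1, the transcription factor that IRE1 activates by splicing, was at 55.9, 58.5 and 79.5 TPM in Emg1 cKO and at 107, 105 and 101 TPM in Lp/Lp (-0.73 ± 0.11, adjusted p = 0.019). The groups did not overlap, but the call was lost without Emg1 cKO replicate 1 (adjusted p = 0.057), Emg1 cKO replicate 2 (0.12), Lp/Lp replicate 2 (0.085) or Lp/Lp replicate 3 (0.053). Manf, a secreted factor that also acts inside the endoplasmic reticulum, differed by -0.80, Creld2 by -0.62, Creld1 by -0.58, the Hsp110 protein Hyou1 by -0.54 and the Hsp40 protein Dnajb11 by -0.43. Hsp90b1, the Hsp90 of this compartment, differed by -0.40, the calcium-binding lectin chaperones Calr and Canx by -0.39 and -0.29, and the disulfide isomerases Pdia6 and Pdia3 by -0.34 and -0.28. Edem1 and Sel1l, which act in the disposal of misfolded proteins, differed by -0.38 and -0.30. The wild type mean was nearer to Lp/Lp for 15 of the 17, the exceptions being Creld1 (15.5 TPM in wild type) and Sel1l (43.0 TPM). A separate list of 26 tested targets of ATF4, the factor that acts after PERK, held 0 called genes in this test and 8 at an unadjusted p under 0.05. DESeq2 called 1 and limma with library weights 4, all lower. Over all 17062 tested genes 2760 had an unadjusted p under 0.05 in edgeR, DESeq2 called 833 and limma with library weights 899, in either direction.

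The promoters of several of these genes share a known element. The endoplasmic reticulum stress element, spelled CCAAT, any 9 bases and CCACG, and known to bind NF-Y together with ATF6, was searched on both strands in RefSeq promoter windows (build GRCm38.p6) that run from 250 bases before to 50 bases after each gene's start. It was in a window of 37 of 27025 genes (0.137%). Of the 17 lower genes 15 had a window and 7 held the element (46.7%), and of the list's genes that were not called 28 had a window and 2 held it (7.14%). The list was drawn up after values were seen, from genes of the response that this element is named for. These shares therefore describe the list and test nothing. The 8 matches are shown because the genes that carry them are among the lower chaperone genes; each sequence reads 5′ to 3′ on the gene's strand with 20 bases either side, and capitals mark the element, which reads on the other strand (as CGTGG, 9 bases and ATTGG) in Creld2, Calr and the second Hsp90b1 match. A match is a description of the letters and not of binding.
Hspa5, chr2:34772005-34772063, + strand, 65 bases before the start: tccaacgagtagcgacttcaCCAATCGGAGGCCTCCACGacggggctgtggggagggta
Dnajc3, chr14:118937807-118937865, + strand, 105 bases before the start: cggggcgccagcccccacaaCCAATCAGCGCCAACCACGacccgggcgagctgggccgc
Creld2, chr15:88819500-88819558, + strand, 126 bases before the start: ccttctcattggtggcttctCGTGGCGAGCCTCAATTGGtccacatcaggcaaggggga
Hsp90b1, chr10:86705618-86705676, - strand, 212 bases before the start: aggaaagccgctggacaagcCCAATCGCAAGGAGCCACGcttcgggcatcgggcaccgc
Hsp90b1, chr10:86705513-86705571, - strand, 107 bases before the start: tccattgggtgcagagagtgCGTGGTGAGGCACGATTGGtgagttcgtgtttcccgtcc
Calr, chr8:84847055-84847113, - strand, 162 bases before the start: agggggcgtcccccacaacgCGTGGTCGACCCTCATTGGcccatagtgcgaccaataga
Pdia6, chr12:17266471-17266529, + strand, 98 bases before the start: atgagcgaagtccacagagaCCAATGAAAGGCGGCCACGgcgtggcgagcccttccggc
Canx, chr11:50325780-50325838, - strand, 145 bases before the start: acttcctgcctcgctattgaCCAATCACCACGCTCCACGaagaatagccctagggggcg

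Some heat shock chaperones, most of them of the cytosol, were lower as well. The list of 44 tested heat shock chaperones and cochaperones was also drawn up after values were seen. Of these genes, 12 were lower in Emg1 cKO (against 0.908% of all genes), 0 were higher and 32 were not called, with a median of -0.16. The count was 14 without Lp/Lp replicate 1, 11 without Emg1 cKO replicate 1, 10 without Emg1 cKO replicate 3, 5 without Lp/Lp replicate 2 or 3 and 4 without Emg1 cKO replicate 2. Hspa1b, an Hsp70 gene induced by heat and other stress, was at 1.57, 2.13 and 3.79 TPM in Emg1 cKO and at 19, 14.8 and 16.5 TPM in Lp/Lp, 6.89-fold apart (-2.78 ± 0.27, adjusted p = 0.0023). Its neighbour and near-identical copy Hspa1a was at 1.13, 1.17 and 2.62 TPM against 11.1, 9.55 and 11.8 TPM (-2.74 ± 0.29, adjusted p = 0.0026), and the split of reads between the copies is uncertain. Both lay between the mutants in wild type, at 4.78 ± 0.774 and 4.03 ± 1.06 TPM (SD, n = 3), so for these genes the wild type mean was nearer to Emg1 cKO.

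The other members differed less but were far more abundant. Hsph1, an Hsp110 that reloads Hsp70, was at 109, 96.2 and 119 TPM in Emg1 cKO and at 197, 194 and 215 TPM in Lp/Lp (-0.94 ± 0.07, adjusted p = 0.00065), with no overlap and a call in all 6 fits without 1 library. Hspa8, the constitutive Hsp70, was at 1380, 1610 and 1940 TPM against 2660, 2500 and 2740 TPM (-0.72 ± 0.10, adjusted p = 0.014). Its call was lost without Emg1 cKO replicate 2 (adjusted p = 0.098), Lp/Lp replicate 2 (0.055) or Lp/Lp replicate 3 (0.051). The Hsp40 genes Dnajb1 and Dnaja1 differed by -0.53 and -0.38, the Hsp90 cochaperones Chordc1, Ahsa1, Stip1 and Fkbp4 by -0.49, -0.41, -0.30 and -0.22, Cacybp by -0.32 and the mitochondrial Hspe1 by -0.26. For these and Hspa8 the wild type mean was nearer to Lp/Lp. Fkbp4 lies 3.73 Mb from Emg1. The heat shock element, spelled GAA, any 2 bases, TTC, any 2 bases and GAA (both strands), was in a promoter window of 0.662% of all genes, of 3 of the 11 lower genes with a window (Hsph1, Chordc1 and Hspe1) and of 2 of the 25 genes of the list that were not called. As this list was also drawn up after values were seen, from heat shock genes, these shares test nothing either. A list of 16 tested genes of tissue handling held 4 called genes, all lower (against 0.908% of all genes). They were Hspa1a, Hspa1b, Hsph1 and Dnajb1. The list's immediate early transcription factors, such as Fos, Jun and Egr1, were not called.

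**Figure D2:**
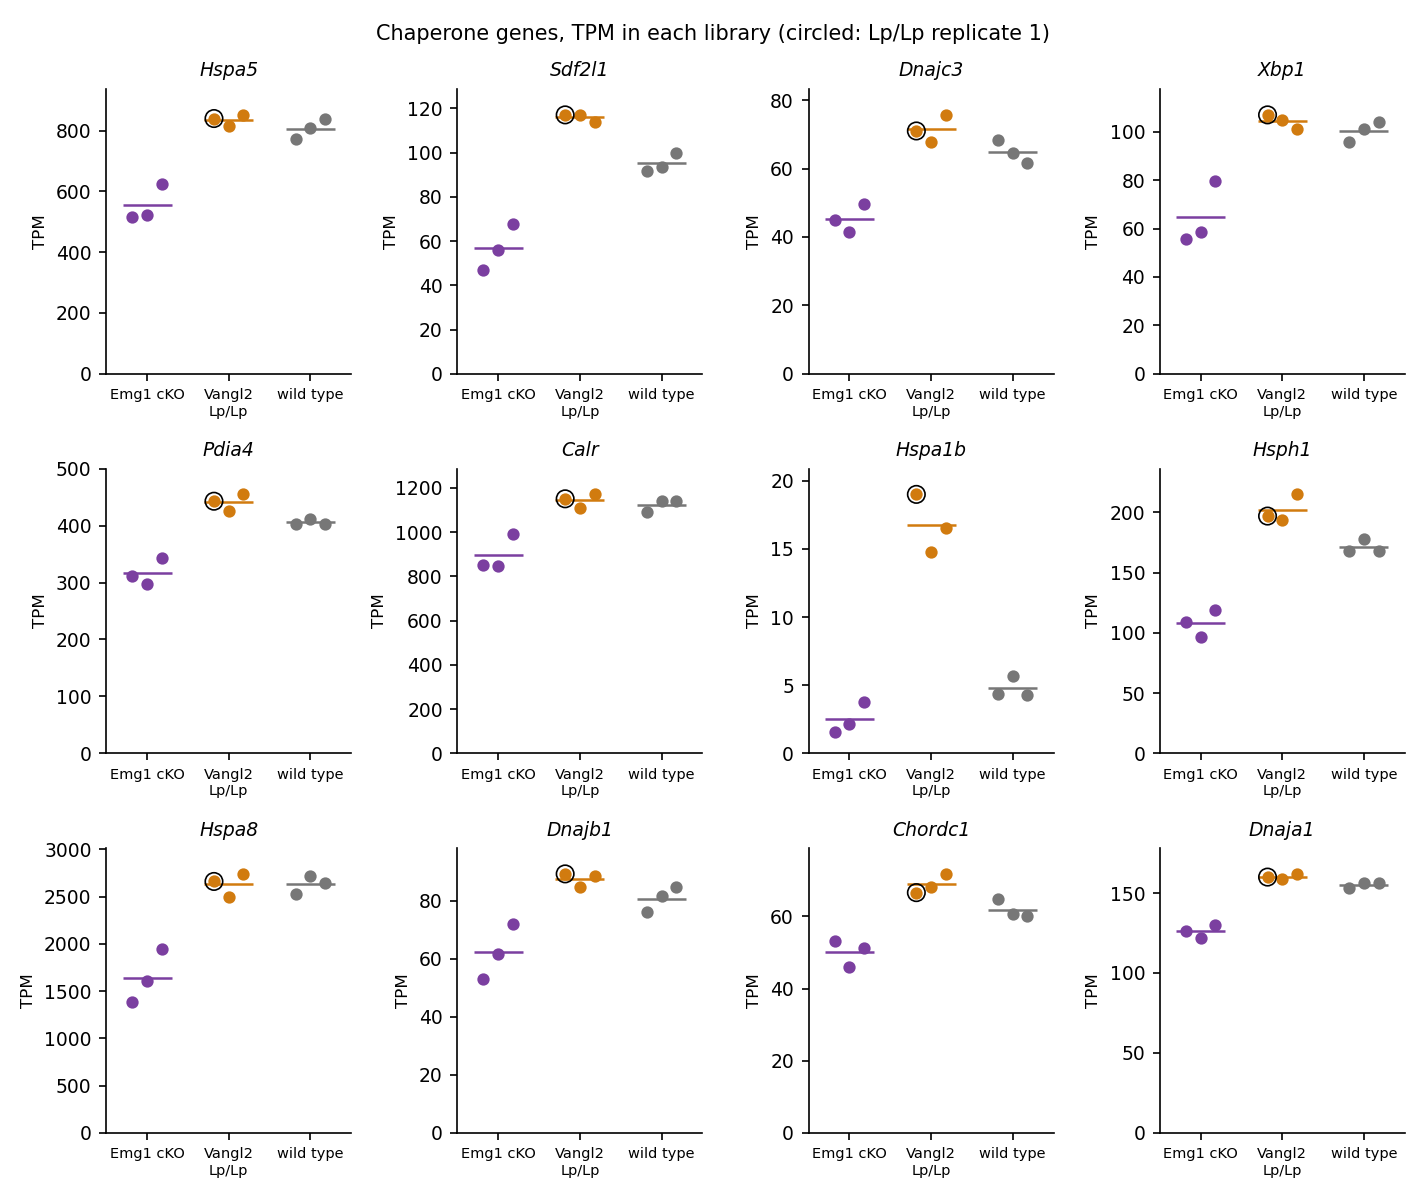
TPM of 12 chaperone genes in each of the 3 Emg1 cKO, 3 Vangl2 Lp/Lp and 3 wild type libraries; each point is 1 library, lines are means, the vertical axis starts at 0 and the circle marks Lp/Lp replicate 1. In each panel the 3 Emg1 cKO libraries lie below the 3 Lp/Lp libraries, as for Hspa5 with 515 to 625 against 817 to 852 TPM; only for Hspa1b is wild type, at 4.78 TPM, nearer to Emg1 cKO among the genes drawn.

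Some surface ectoderm genes were lower in Emg1 cKO. This sheet covers the embryo, fuses over the neural tube at closure and becomes epidermis. Of 38 tested genes of surface ectoderm and early epidermis, 8 were lower (against 0.908% of all genes), 0 were higher and 30 were not called. The median was -0.37, against -0.0022 for all genes, and 32 of the 38 differences were below 0. The 8 were Tfap2c, Trp63, Krt5, Wnt6, Cxcl14, Dlx3, Esrp1 and Cldn6, and for all 8 the wild type mean was nearer to Lp/Lp. Their number was 9 without Lp/Lp replicate 1, 8 without Emg1 cKO replicate 3, 5 without Emg1 cKO replicate 1, 4 without Lp/Lp replicate 3, 3 without Lp/Lp replicate 2 and 2 without Emg1 cKO replicate 2, while the median stayed between -0.46 and -0.33 in these fits.

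Tfap2c, an AP-2 transcription factor of early ectoderm, was at 6.59, 6.85 and 6.12 TPM in Emg1 cKO and at 11.1, 12.9 and 13.5 TPM in Lp/Lp (-0.98 ± 0.12, adjusted p = 0.0052), and the call held in all 6 fits without 1 library. Trp63 encodes p63, the factor that commits ectoderm to epidermis. It was at 4.26, 3.52 and 3.90 TPM against 6.64, 6.75 and 7.87 TPM (-0.90 ± 0.11, adjusted p = 0.0056), and without Emg1 cKO replicate 2 the adjusted p was 0.051. Krt5, a keratin of basal epidermis and a p63 target, was at 14.6, 17.4 and 11.6 TPM against 27.0, 29.0 and 31.3 TPM (-1.04 ± 0.14, adjusted p = 0.012), and without Lp/Lp replicate 2 the adjusted p was 0.060. None of these 3 genes overlapped between the mutants. The chemokine Cxcl14 differed by -0.83 and the secreted signal Wnt6 by -0.84, and Dlx3, a homeobox factor of ectoderm at low level, by -1.74. Esrp1, which sets epithelial splicing, and the tight junction gene Cldn6 differed by -0.58 and -0.47.

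The grainyhead factors, which drive epithelial genes and neural tube closure, did not pass in edgeR. Grhl3 was at 3.18, 6.23 and 7.61 TPM in Emg1 cKO and at 9.44, 12.7 and 12 TPM in Lp/Lp, without overlap (-1.04 ± 0.27, adjusted p = 0.098). Grhl2 was at 1.96, 1.96 and 2.21 TPM against 2.87, 3.48 and 2.78 TPM (-0.61 ± 0.14, adjusted p = 0.074). Other fits called both. The adjusted p of Grhl3 and Grhl2 was 0.0014 and 0.011 in DESeq2, 0.021 and 0.024 in limma with library weights and 0.019 and 0.044 in the joint fit of the 12 libraries. Simple-epithelium genes of the list were close to equal: Krt8 was at 77.9 to 127 TPM against 76.4 to 114 TPM and Krt18 at 65.0 to 85.2 TPM against 67.3 to 88.0 TPM, neither called. Of 13 tested genes of epidermal differentiation and periderm 1 was lower (against 0.908% of all genes), with a list median of -0.41. This gene was Sfn, at 15.8, 16.5 and 14.7 TPM against 24.6, 24.4 and 24.8 TPM (-0.69 ± 0.11, adjusted p = 0.017). Of 23 genes of tight junctions and epithelial adhesion 2 were lower, Cldn6 and F11r (against 0.908% of all genes), with a median of -0.28. F11r lies 0.56 Mb from Vangl2. Sfn, Wnt6, Esrp1, Cldn6 and F11r were not called without Emg1 cKO replicate 1 or 2 or without Lp/Lp replicate 2 or 3, and the periderm and junction lists then held 0 lower genes each. Cxcl14 was lost without Emg1 cKO replicate 2 (adjusted p = 0.082) or Lp/Lp replicate 2 (0.060), and Dlx3 without Emg1 cKO replicate 1 (0.084), Emg1 cKO replicate 2 (0.12) or Lp/Lp replicate 3 (0.052).

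A few tail bud genes were lower in Emg1 cKO, and their number changed with the library left out, rising without Lp/Lp replicate 1. Of 33 tested genes of neuromesodermal and tail bud progenitors 3 were lower (Cyp26a1, Fgf8 and Lin28a; 0.908% of all genes were lower) and 0 higher, with a median of -0.30 and 31 differences below 0. Without Lp/Lp replicate 1, 13 were lower and the median was -0.42. Over all genes, calls of lower genes rose in that fit from 155 to 224. The count was 4 without Emg1 cKO replicate 3, 0 without Emg1 cKO replicate 2 and 1 without any of the other 3 libraries. Cyp26a1, which destroys retinoic acid in the tail bud, was at 4.27, 5.27 and 5.99 TPM in Emg1 cKO and at 12.2, 13.3 and 14.6 TPM in Lp/Lp (-1.40 ± 0.17, adjusted p = 0.0057; 0.051 without Emg1 cKO replicate 2). Its Lp/Lp values were close to one another, and wild type was at 12 ± 1.16 TPM. Fgf8, the growth factor that keeps tail bud progenitors undifferentiated, was at 19.4, 17.9 and 20.6 TPM against 27.3, 42.0 and 41.6 TPM (-0.97 ± 0.16, adjusted p = 0.023). Here Lp/Lp replicate 1 lay apart, at the level of wild type (28.8 ± 3.09 TPM), and replicates 2 and 3 were above both. Lin28a, an RNA-binding protein that declines with developmental age, was also lowest in replicate 1 within Lp/Lp, 57.6, 56.9 and 64.0 TPM against 72.5, 101 and 112 TPM (-0.71 ± 0.13, adjusted p = 0.031).

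Other genes of the tail bud were not called with all 6 libraries and passed without Lp/Lp replicate 1. Nkx1-2, a marker of neuromesodermal progenitors, was at 2.36 to 3.66 TPM in Emg1 cKO and at 4.25, 7.09 and 9.25 TPM in Lp/Lp (adjusted p = 0.056, and 0.0058 without that library). Cdx2, a caudal homeobox factor, was at 3.82 to 8.59 TPM against 8.58, 15.5 and 14.4 TPM (adjusted p = 0.095, and 0.023 without it), and T itself went from an adjusted p of 0.18 to 0.024. Of 27 tested WNT feedback genes and targets 1 was lower (against 0.908% of all genes). It was Notum, which cleaves the lipid from WNT proteins (-1.0 ± 0.19, adjusted p = 0.037). Without Lp/Lp replicate 1, 7 of the 27 were lower. Fgf8, Lin28a and Notum were each lost without Emg1 cKO replicate 1 (adjusted p of 0.084, 0.11 and 0.11), Emg1 cKO replicate 2 (0.14, 0.17 and 0.19), Lp/Lp replicate 2 (0.11, 0.14 and 0.14) or Lp/Lp replicate 3 (0.086, 0.092 and 0.12). Of 39 tested Hox genes 0 were called by edgeR, 2 by DESeq2 and 1 by limma with library weights, and 7 had an unadjusted p under 0.05. Of all 17062 tested genes DESeq2 called 833 and limma with library weights 899, and 2760 had an unadjusted p under 0.05 in edgeR.

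The summed level of neuron genes was higher in Emg1 cKO than in Lp/Lp replicates 2 and 3 but not than in Lp/Lp replicate 1, and few single genes passed. Of 50 tested genes 3 were higher, Isl1, Lhx4 and Lbx1 (against 0.803% of all genes). Of the same 50, 1 was lower, Lhx2 (against 0.908%), and the list had a median of 0.31 and 42 differences above 0. Without Lp/Lp replicate 1, 26 were higher and 2 lower, and the median was 0.53. That library was set apart partly by the level of these same genes. The rise on leaving it out, here and for the single genes below, therefore tests nothing. Over all genes, calls in the same fit rose from 137 to 347 higher and from 155 to 224 lower. Without Emg1 cKO replicate 2 or Lp/Lp replicate 2 none of the 50 was called in either direction. Their summed level was 1650, 1620 and 1560 TPM in Emg1 cKO, 1700, 1010 and 1030 TPM in Lp/Lp, and 622 to 761 TPM in wild type. Tubb3, the neuronal tubulin, was at 365, 365 and 368 TPM in Emg1 cKO and at 459, 235 and 236 TPM in Lp/Lp (0.20 ± 0.22, adjusted p = 0.71, and 0.00067 without Lp/Lp replicate 1). The neurofilament gene Nefl was at 151, 149 and 124 TPM against 138, 63.4 and 64.9 TPM (0.63 ± 0.26, adjusted p = 0.26, and 0.00037 without that library), and Ina, an early neurofilament, was at 110, 110 and 109 TPM against 94.4, 49.3 and 52.3 TPM (0.71 ± 0.20, adjusted p = 0.12, and 2.7e-05 without it). All 3 genes were lowest in wild type, at 145, 35.6 and 29.6 TPM.

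The subtype factors that were called did not depend on Lp/Lp replicate 1. Isl1, a LIM factor of motor neurons and hindlimb progenitors, was at 57.7, 55.0 and 52.4 TPM in Emg1 cKO and at 40.9, 36.4 and 38.3 TPM in Lp/Lp (0.48 ± 0.07, adjusted p = 0.011), and wild type was at 40.1 ± 1.89 TPM. Lhx4, of motor neurons and V2 interneurons, was at 9.06, 8.99 and 9.04 TPM against 6.60, 6.10 and 6.12 TPM (0.49 ± 0.09, adjusted p = 0.032). Slc10a4, a transporter of cholinergic and other vesicles, was at 18.3, 17.6 and 21.2 TPM against 9.88, 7.70 and 9.77 TPM (1.03 ± 0.14, adjusted p = 0.010). In the opposite direction, Olig3, a bHLH factor of dorsal progenitors, was at 23.6, 26.5 and 29.9 TPM against 41.0, 43.2 and 39.5 TPM (-0.67 ± 0.10, adjusted p = 0.016), and wild type, at 27.9 ± 2.38 TPM, was at the level of Emg1 cKO. Gdf7, a roof plate BMP, was below 0.5 TPM in every Emg1 cKO library and at 2.35, 2.55 and 1.29 TPM in Lp/Lp (-2.46 ± 0.40, adjusted p = 0.021). Without Emg1 cKO replicate 2 each of these 5 lost its call (adjusted p of 0.079, 0.15, 0.051, 0.098 and 0.12), and all but Slc10a4 also did without Lp/Lp replicate 2 (0.066, 0.14, 0.085 and 0.095 for Isl1, Lhx4, Olig3 and Gdf7). Lhx4 was in addition lost without Emg1 cKO replicates 1 (0.084) and 3 (0.067) and Lp/Lp replicate 3 (0.11), and Gdf7 without Emg1 cKO replicate 1 (0.083).

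**Figure D3:**
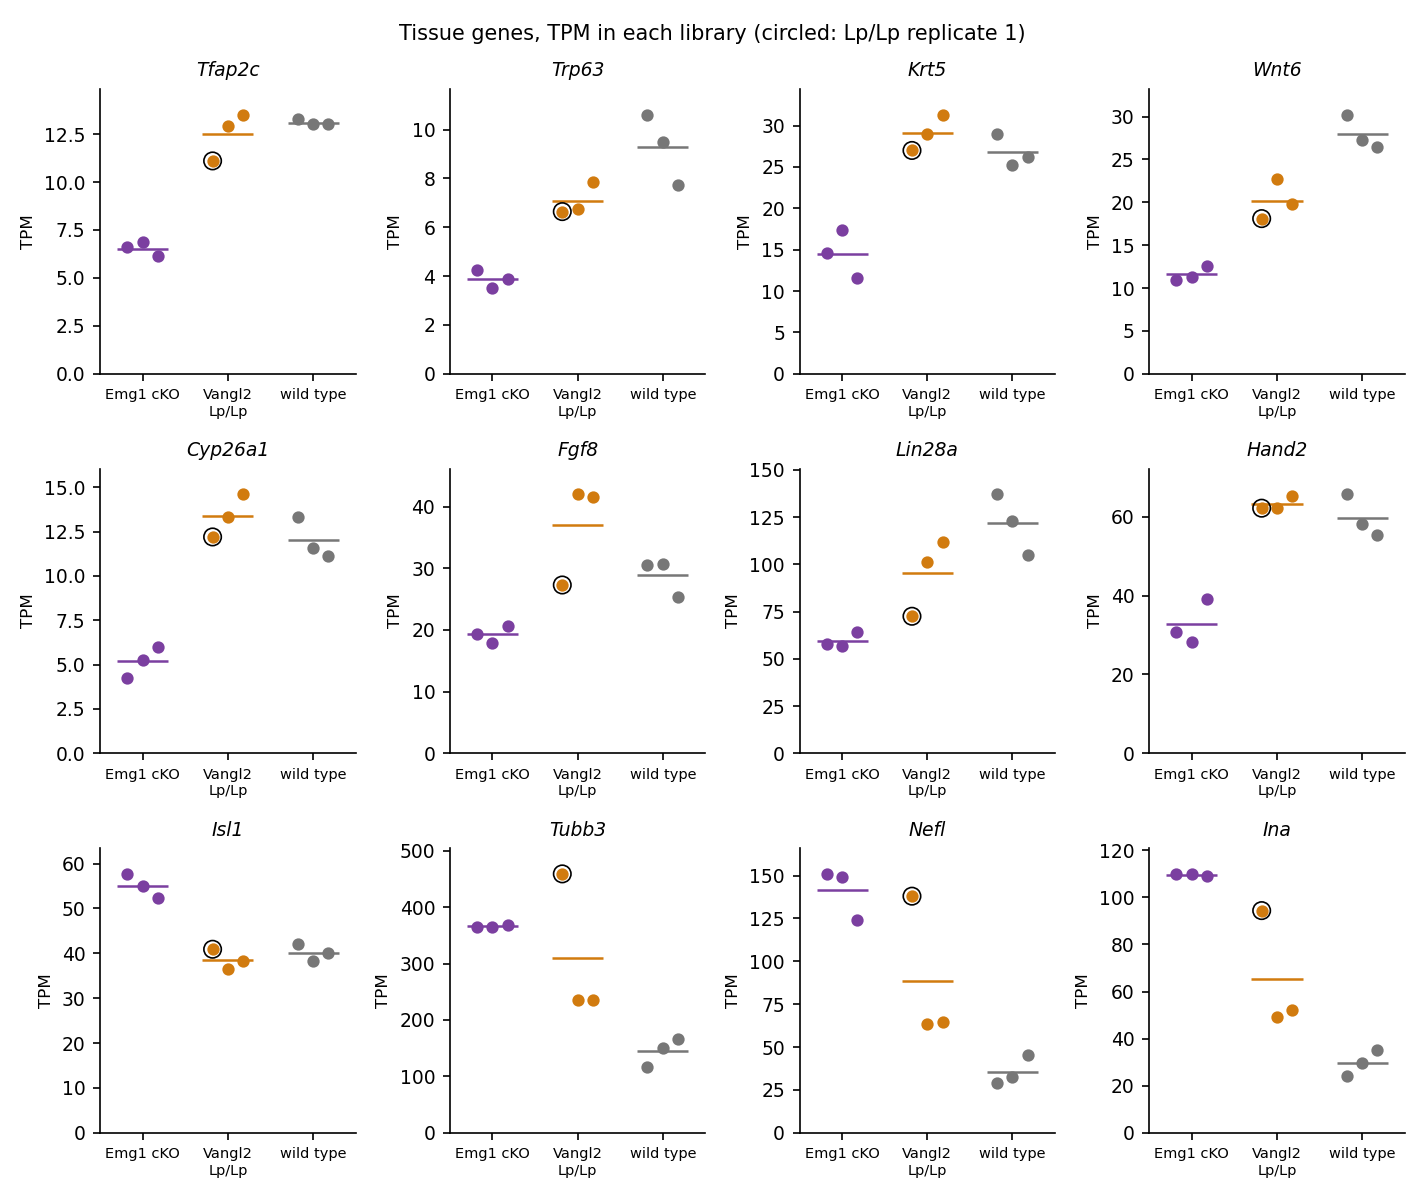
TPM of 12 genes of ectoderm, tail bud, mesenchyme and neurons in each Emg1 cKO, Vangl2 Lp/Lp and wild type library; each point is 1 library, lines are means, the vertical axis starts at 0 and the circle marks Lp/Lp replicate 1. That library is among its group for Tfap2c, Krt5, Hand2 and Isl1 and far from replicates 2 and 3 for Fgf8, Tubb3, Nefl and Ina, for example 459 against 235 and 236 TPM for Tubb3.

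Limb and flank mesenchyme genes went both ways: of 34 tested, 3 were higher (Isl1, Meis2 and Osr2) and 4 lower (Hand2, Fgf8, Lhx2 and Fgf10), with a median of -0.06. Over all tested genes 0.803% were higher and 0.908% lower. Hand2, a bHLH factor of posterior limb bud and lateral plate, was at 30.7, 28.3 and 39.1 TPM in Emg1 cKO and at 62.2, 62.3 and 65.3 TPM in Lp/Lp (-0.99 ± 0.11, adjusted p = 0.0032). The groups were well apart, wild type was at 59.8 ± 5.32 TPM, and the call held in all 6 fits without 1 library. Meis2, a homeobox factor of proximal limb, was at 79.6, 81.3 and 85.3 TPM against 60.6, 63.7 and 66.7 TPM (0.33 ± 0.05, adjusted p = 0.017). Of 19 tested genes of the nephric duct and intermediate mesoderm 2 were higher (against 0.803% of all genes), with a median of 0.24. They were the receptor Ret and the transcriptional cofactor Eya1 (0.48 ± 0.10, adjusted p = 0.045). Ret was at 14.2, 15 and 13.8 TPM against 9.90, 7.40 and 8.44 TPM (0.70 ± 0.11, adjusted p = 0.016). Ret lies 6.53 Mb from Emg1. Without Emg1 cKO replicate 2 Hand2 was the only gene of these lists still called. Meis2 was also lost without Lp/Lp replicate 2 (adjusted p = 0.087), and Ret and Eya1 without Emg1 cKO replicate 1 (0.050 and 0.12), Lp/Lp replicate 2 (0.066 and 0.18) or Lp/Lp replicate 3 (0.065 and 0.14). With 1 library left out, the limb list held 0 to 5 higher and 1 to 6 lower genes and the nephric list 0 to 4 higher genes, the most in each case without Lp/Lp replicate 1.

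Some genes of cholesterol and fatty acid synthesis were higher in Emg1 cKO. Of 31 tested, 6 were higher (against 0.803% of all genes) and 0 lower, 25 were not called, 26 differences were above 0 and the median was 0.17. Scd1, which desaturates fatty acids, was at 70, 63.7 and 70.7 TPM in Emg1 cKO and at 44.7, 45.7 and 48.6 TPM in Lp/Lp (0.52 ± 0.06, adjusted p = 0.0029), and it was called in all 6 fits without 1 library. The sterol enzyme Hsd17b7, 2.06 Mb from Vangl2, was at 30.1, 25.2 and 25.7 TPM against 20.2, 18.5 and 17.2 TPM (0.50 ± 0.09, adjusted p = 0.029). The sterol enzymes Msmo1, Sc5d and Hmgcs1, the last making the precursor of mevalonate, differed by 0.31, 0.28 and 0.26, and Insig1, the sterol sensor that restrains the pathway, by 0.28. Wild type was nearer to Emg1 cKO for 4 of the 6, with Scd1 at 61.7 ± 9.56 TPM. With 1 library left out, the count of higher genes was 5 without Lp/Lp replicate 1, 2 without Emg1 cKO replicate 3 and 1 without any other library.

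Some glycolysis genes were lower: of 31 tested genes of glycolysis, glucose transport and hypoxia, 4 were lower (against 0.908% of all genes) and 0 higher, 27 were not called, 25 were below 0 and the median was -0.16. Slc2a3, a glucose transporter 1.94 Mb from Emg1, was at 38.0, 41.4 and 44.0 TPM in Emg1 cKO and at 53.8, 66.7 and 71.3 TPM in Lp/Lp (-0.67 ± 0.10, adjusted p = 0.014). P4ha1, a collagen prolyl hydroxylase induced in hypoxia, differed by -0.38, and the glycolytic enzymes Pgam1 and Eno1 by -0.22 and -0.21. Wild type was nearer to Lp/Lp for all 4. The count was 4 without Lp/Lp replicate 1, 2 without Emg1 cKO replicate 3, 1 without Lp/Lp replicate 3 and 0 without any of the other 3 libraries. Of 21 tested erythroid genes 2 were lower (against 0.908% of all genes), and the median was -0.40. The erythroid transcription factor Klf1 was among the 2, at 12.9, 11.5 and 10 TPM against 23.1, 19.6 and 18.2 TPM (-0.86 ± 0.15, adjusted p = 0.025). The summed erythroid level overlapped between the mutants, at 17300 to 23500 TPM in Emg1 cKO and 20800 to 32400 TPM in Lp/Lp, and without Emg1 cKO replicate 1, 2 or 3 or Lp/Lp replicate 2 neither gene was called. Klf1 was also lost without Lp/Lp replicate 3 (adjusted p = 0.053).

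Genes of the pathways that the mutated genes belong to were mostly not called. Over all tested genes 0.803% were called higher and 0.908% lower. Of the 17062 genes 2760 had an unadjusted p under 0.05 in edgeR, and DESeq2 called 833 and limma with library weights 899. Of 51 tested genes for small ribosomal subunit biogenesis 1 was lower, Emg1 itself, with a median of -0.08. Of the 51 differences 43 were below 0. Counting Emg1, 14 lower genes had an unadjusted p under 0.05, as did 1 higher gene. Of 38 genes for large subunit biogenesis 1 was lower, Nvl, which lies 9.10 Mb from Vangl2 (-0.30 ± 0.06, adjusted p = 0.032). In that list 29 differences were below 0, with a median of -0.07, and 11 lower and 2 higher genes had an unadjusted p under 0.05. Among 79 cytosolic ribosomal protein genes 71 differences were below 0, with a median of -0.07, and 2 were called in opposite directions: Rpsa was lower (-0.22 ± 0.04, adjusted p = 0.033), and Rpl29 was higher, at 544, 545 and 295 TPM in Emg1 cKO and 221, 222 and 237 TPM in Lp/Lp (0.99 ± 0.19, adjusted p = 0.039). Emg1 cKO replicate 3 was closer to Lp/Lp than to the other Emg1 cKO libraries for Rpl29, which was called in 2 of the 6 fits without 1 library (without Emg1 cKO replicate 3 and without Lp/Lp replicate 1). Rpsa was called in 1 of the 6 (without Lp/Lp replicate 1) and Nvl in 2 (without Emg1 cKO replicate 1 and without Lp/Lp replicate 1). Of 37 tested p53 targets, a group raised when ribosome assembly fails, 1 was higher, Psrc1 (0.27 ± 0.05, adjusted p = 0.040; called in 0 of the 6 fits). Of 34 planar cell polarity genes and of 26 genes of actomyosin and apical constriction 0 were called by edgeR, with 4 and 3 at an unadjusted p under 0.05. DESeq2 called 4 and 1 and limma with library weights 3 and 1. Neural progenitor (28 genes), Hedgehog (26), endothelial (28), mitotic (24) and BMP and TGF-beta genes (26) also had 0 calls by edgeR, with 3, 3, 1, 2 and 8 at an unadjusted p under 0.05. DESeq2 called 1, 0, 0, 0 and 1 of them and limma with library weights 1, 0, 1, 0 and 0.

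**Figure D4:**
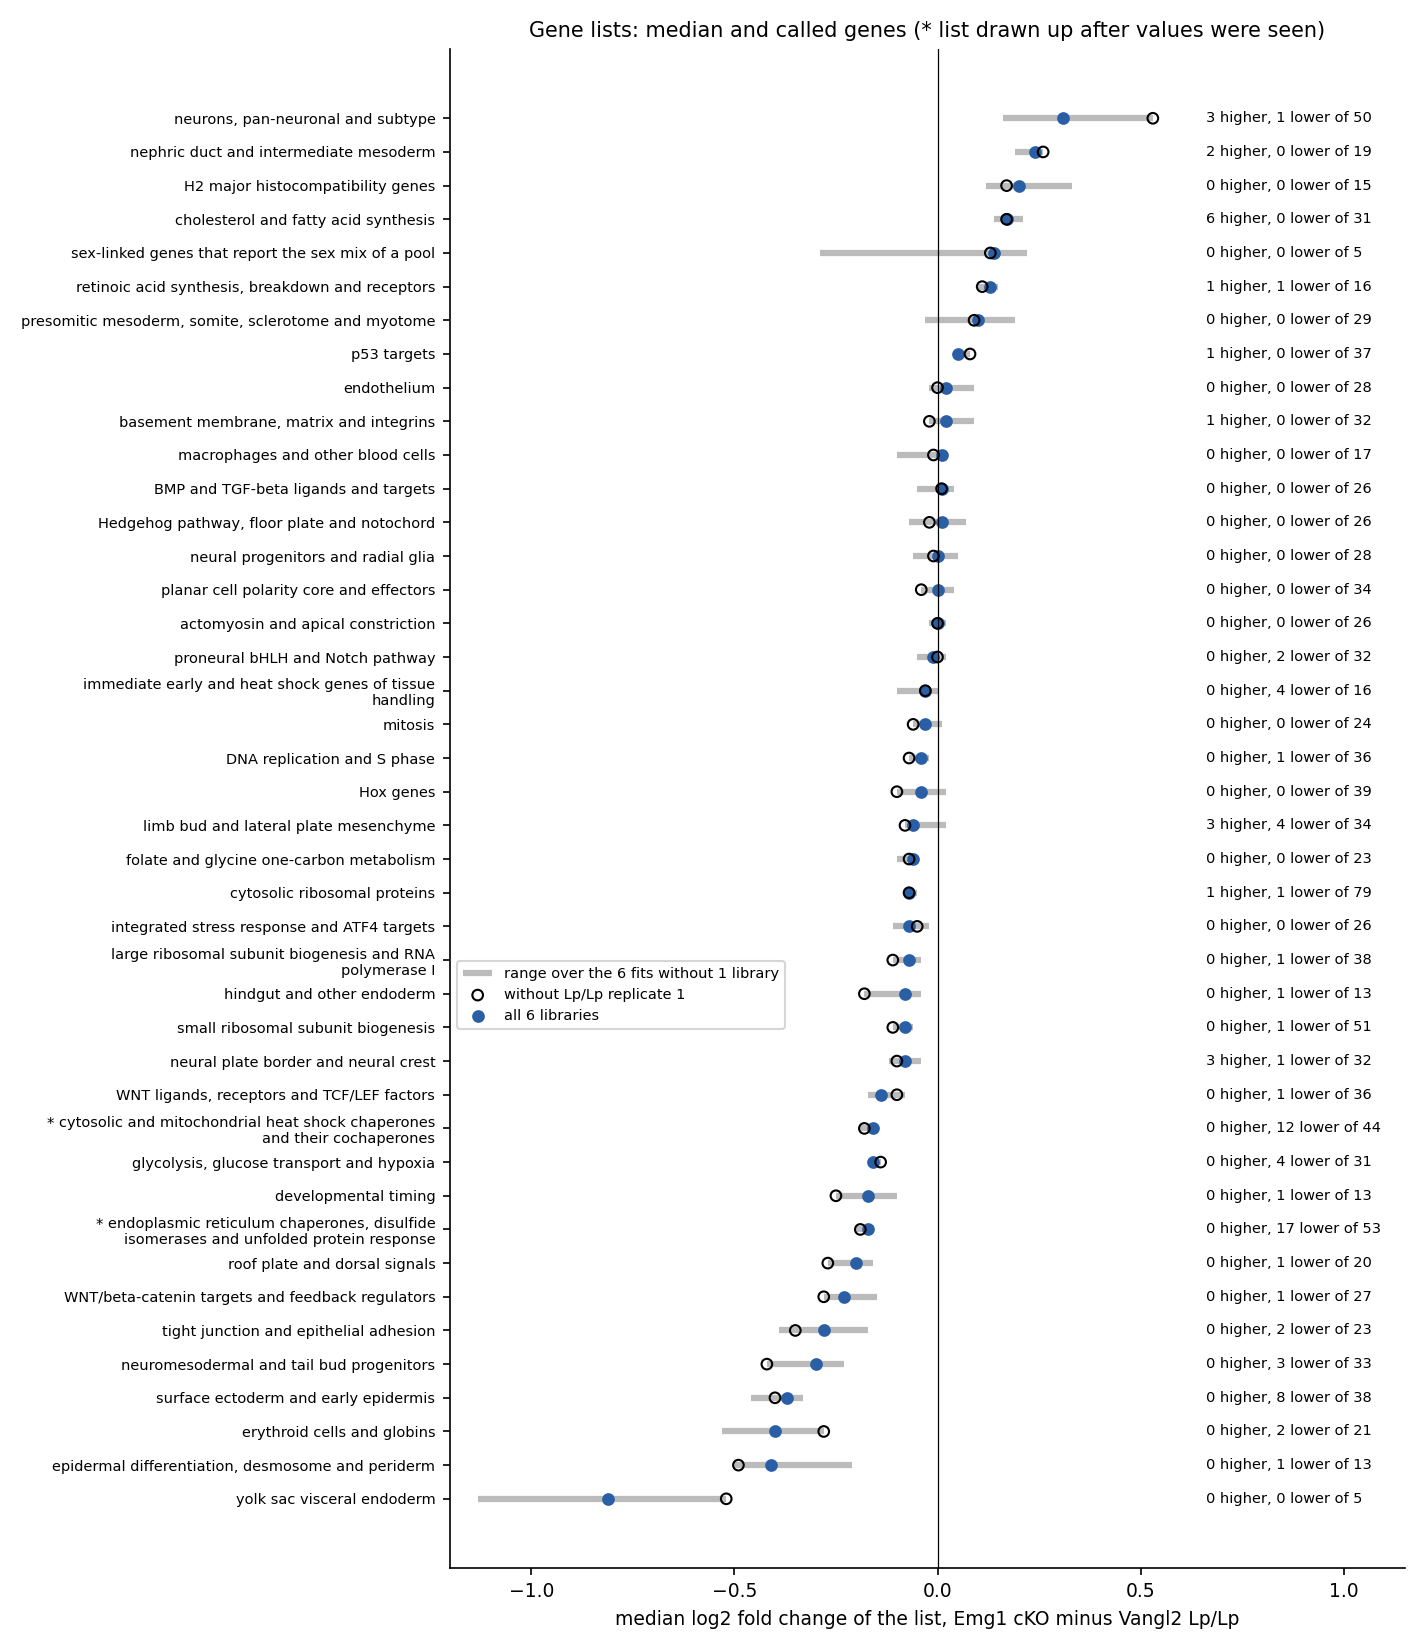
Median log2 fold change (Emg1 cKO minus Vangl2 Lp/Lp) of each gene list with all 6 libraries (blue), without Lp/Lp replicate 1 (open circles) and its range over the 6 fits that left out 1 library (grey bars), with the number of genes called higher and lower of those tested. The neuron list moved from 0.31 to 0.53 and the tail bud list from -0.30 to -0.42 without Lp/Lp replicate 1, while the 2 chaperone lists, drawn up after values were seen, stayed between -0.20 and -0.16.

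Several large differences lay in genes with near copies or close to the mutated loci. Cwc22, a splicing factor on chromosome 2, was at 59.3, 68.1 and 31.8 TPM in Emg1 cKO and at 342, 480 and 487 TPM in Lp/Lp, 8.43-fold apart (-3.07 ± 0.26, adjusted p = 0.0010), with wild type at 553 ± 49.5 TPM. Within 10 Mb of it 7 gene models of nearly equal read numbers, Gm13691 to Gm13698, were called lower as well, each at 0.222 to 0.897 TPM in Emg1 cKO and at 5.68 to 8.67 TPM in Lp/Lp. Each of the 7 had 18 reads in Emg1 cKO replicate 1 and 149 or 150 in Lp/Lp replicate 1, so they cannot be taken as separate observations. Of the 23 called pseudogenes 13 were higher and 10 lower in Emg1 cKO. Rps19-ps6, a copy of the ribosomal protein gene Rps19, was among the lower ones, at 75.9, 38.9 and 74.8 TPM against 150, 150 and 135 TPM (-1.24, adjusted p = 0.023). Its call was lost without Emg1 cKO replicate 1 (0.050), Lp/Lp replicate 2 (0.11) or Lp/Lp replicate 3 (0.064). Among the higher ones, Rpsa-ps10, a processed copy of the ribosomal protein gene Rpsa, was at 679, 746 and 848 TPM in Emg1 cKO and at 129, 127 and 125 TPM in Lp/Lp (2.54 ± 0.08, adjusted p = 8.8e-07), while Rpsa was at 1820, 1770 and 1800 TPM against 2080, 2010 and 2040 TPM. Rpl30-ps9 was at 125, 112 and 130 TPM against 11.8, 13.3 and 10.2 TPM (3.34 ± 0.15, adjusted p = 1.6e-05), and its wild type libraries were at 118, 10.9 and 54.3 TPM, as far apart as the mutants. How reads were shared between a gene and its copies is not stated. Of the 31 genes called in all 6 fits without 1 library, 14 were such copies or gene models without a name, and 8 of the other 17 were chaperones. Those 8 belong to the chaperone lists drawn up after values were seen, so their count tests nothing. The gene models and copies lie outside the rule for named genes and were chosen after their values were seen.

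Genes around Vangl2, on chromosome 1, were called more often than elsewhere. Within 10 Mb of Vangl2 on either side, 19 of 172 tested genes were called (11%, against 1.71% of all genes); it was 15 of 88 within 5 Mb (17%) and 9 of 695 on the rest of the chromosome beyond 20 Mb (1.29%). Around Emg1, on chromosome 6, 4 of 171 genes within 10 Mb were called (2.34%), and 10 of 595 beyond 20 Mb (1.68%). Near Vangl2 13 were lower and 6 higher in Emg1 cKO. The interferon-inducible gene Ifi207 was at 0.727, 0.496 and 0.829 TPM in Emg1 cKO and at 2.88, 3.31 and 3.26 TPM in Lp/Lp (-2.24 ± 0.24, adjusted p = 0.0029), with wild type at 0.21 ± 0.14 TPM. Its neighbour Ifi204 was at 4.35, 0.0172 and 6.97 TPM against 29.7, 43.5 and 46.3 TPM (-3.43 ± 0.66, adjusted p = 0.037), and wild type was at 0.106 ± 0.127 TPM. Srp9, part of the signal recognition particle and also on chromosome 1, was at 20, 18 and 19.2 TPM against 30.5, 36.1 and 32.5 TPM (-0.83 ± 0.08, adjusted p = 0.0023), with wild type at 18.5 ± 0.446 TPM. For these 3 genes wild type was at or below the level of Emg1 cKO and Lp/Lp was apart from both. Ifi204 was lost without Emg1 cKO replicate 1 (adjusted p = 0.12), Lp/Lp replicate 2 (0.14) or Lp/Lp replicate 3 (0.11). Genotype, linked alleles of the parental strains and breeding stock cannot be told apart in this design. Without chromosomes 1 and 6 the calls elsewhere were 112 higher and 110 lower.

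**Figure D5:**
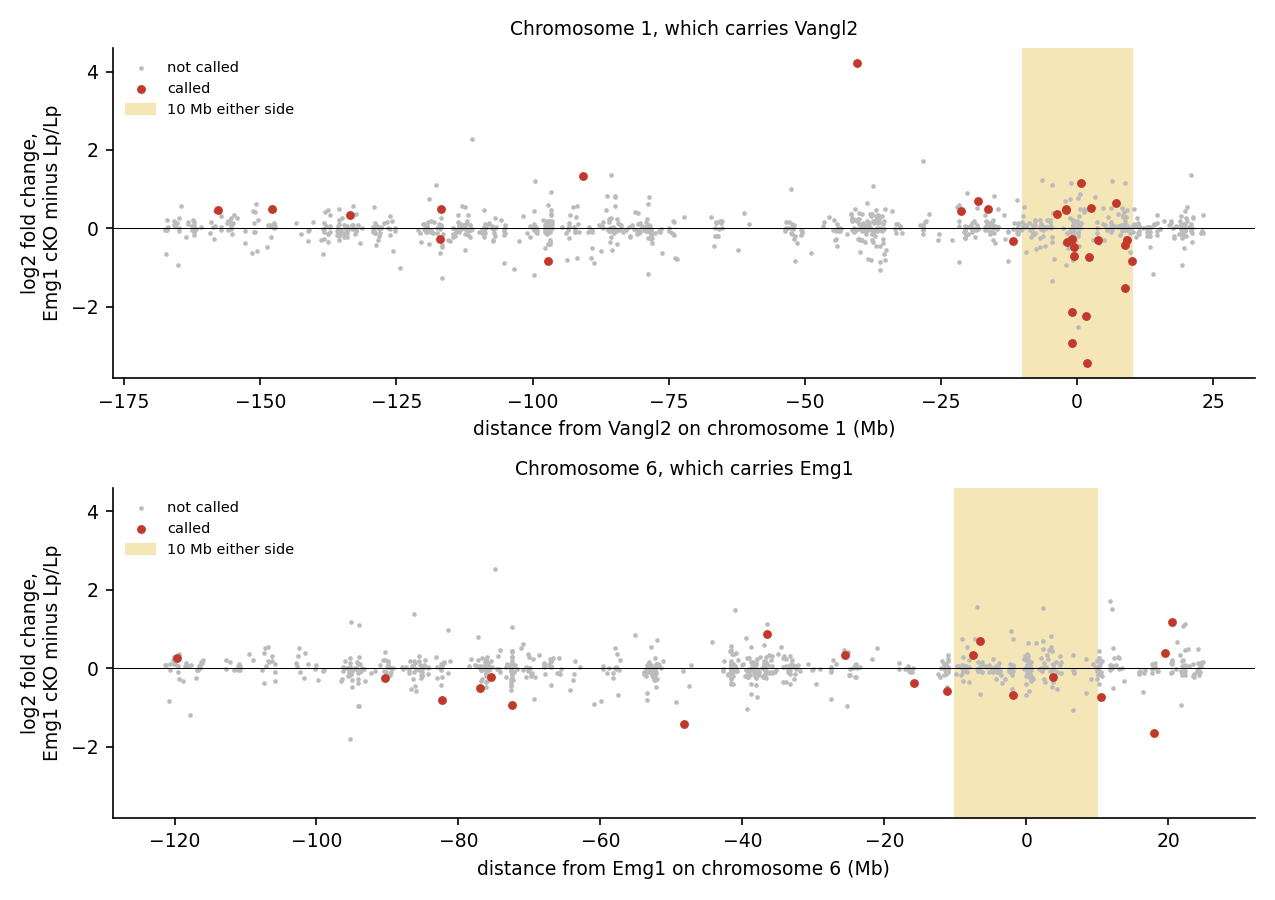
Log2 fold change (Emg1 cKO minus Vangl2 Lp/Lp) of each tested gene on chromosome 1 against its distance from Vangl2 (top) and on chromosome 6 against its distance from Emg1 (bottom), in Mb; red points were called and the shaded band is 10 Mb either side. The band around Vangl2 holds 19 called of 172 genes and the band around Emg1 4 of 171.

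Among the other genes picked by their size of difference, the aspartic protease Ctse was at 2.97, 2.03 and 3.16 TPM in Emg1 cKO and at 0, 0.0246 and 0.408 TPM in Lp/Lp (4.22 ± 0.68, adjusted p = 0.020), with wild type, at 3.96 ± 0.306 TPM, on the side of Emg1 cKO. It lost its call without Emg1 cKO replicate 1 (adjusted p = 0.065), Emg1 cKO replicate 2 (0.082) or Lp/Lp replicate 2 (0.087). Rxfp1, the relaxin receptor, was at 7.59, 10.8 and 6.58 TPM against 2.90, 3.68 and 2.84 TPM (1.37 ± 0.19, adjusted p = 0.011) and kept its call in all 6 fits. Duxbl1, Duxbl2 and Duxbl3, homeobox paralogs on chromosome 14 that can share reads, were higher by 1.57, 1.06 and 1.06, and each was lost without Emg1 cKO replicate 1 (adjusted p of 0.054, 0.12 and 0.11), Emg1 cKO replicate 2 (0.098, 0.18 and 0.18) or Lp/Lp replicate 2 (0.085, 0.17 and 0.16). Duxbl2 and Duxbl3 were also lost without Lp/Lp replicate 3 (0.092 and 0.094). Nepn, a small proteoglycan known from foregut endoderm, was at 0, 0.551 and 0.354 TPM against 3.13, 4.97 and 3.05 TPM (-3.64 ± 0.59, adjusted p = 0.020), and its call was lost without Emg1 cKO replicate 2 (0.074), Lp/Lp replicate 2 (0.087) or Lp/Lp replicate 3 (0.052). Sox9, a factor of neural crest and sclerotome, was at 77.3, 98.3 and 90.4 TPM against 64.8, 64.7 and 64.8 TPM (0.42 ± 0.08, adjusted p = 0.040), and Cxcl12, a chemokine of mesenchyme 7.53 Mb from Emg1, at 142, 138 and 140 TPM against 108, 103 and 114 TPM (0.33 ± 0.05, adjusted p = 0.013). Aldh1a2, which makes retinoic acid in somites, was higher by 0.33 ± 0.06 (141, 155 and 155 TPM against 115, 118 and 117 TPM, adjusted p = 0.023). Cyp26a1, which breaks retinoic acid down, differed in the opposite direction. Wild type was at the level of Emg1 cKO for Aldh1a2, at 147 ± 16.9 TPM. For Cyp26a1 wild type was near Lp/Lp instead, at 12 ± 1.16 TPM. Sox9, Cxcl12 and Aldh1a2 were lost without Emg1 cKO replicate 2 (0.16, 0.079 and 0.14) or Lp/Lp replicate 2 (0.16, 0.085 and 0.093), Sox9 and Aldh1a2 also without Lp/Lp replicate 3 (0.12 and 0.088), and Sox9 without Emg1 cKO replicate 3 (0.078).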

How the data were processed

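Per the labels, total RNA was extracted with a miRNeasy kit and libraries were made with a stranded TruSeq mRNA kit. Per the submitters' processing notes, the tools were Trimmomatic 0.39 and STAR 2.7.10b and the build mm10; the read counter, strand setting and annotation release were not given in these sources. The table the authors deposited holds, per gene and library, the log2 of TPM with levels at or below 1 TPM set to 0, and an expected count of reads, not normalised. TPM below 1 were rebuilt from the counts. Rounded counts of the 6 libraries went into edgeR 4.0.16 (R 4.3.3) with TMM scaling and 1 mean per genotype, and the genotypes were compared by its quasi-likelihood test (two-sided; common dispersion 0.0111), with Benjamini-Hochberg adjustment over 17062 genes and a threshold of 0.05. The 36280 genes at or below the TPM limit were not tested. The SE is the log2 difference divided by the square root of F. The script was tested on simulated counts. DESeq2 1.42.0 and limma 3.58.1 served as alternatives; Python 3.11.15 did the rest. Named genes are Emg1, Vangl2, Ctnnb1, Grhl2 and Grhl3; per direction the 10 called genes with the smallest adjusted p and the 10 with the largest fold (gene models and ribosomal copies left out, at least 2 TPM, no overlap); up to 3 called genes per list and direction; and up to 5 called genes nearest to Emg1 and to Vangl2 within 10 Mb. All other genes in the text, such as Hspa5, Xbp1, Hspa8, Krt5, Dlx3, Tubb3, Nefl, Ina, Nkx1-2 and Cdx2, were chosen after their values were seen. A few named results are not reported here. The members and all 42 gene lists were chosen with earlier results of these data known, and 2 lists, of chaperones, after values of this comparison were seen. Groups of 3 replicate libraries share numbers in the labels, but the numbers do not pair libraries. Sequences come from RefSeq, build GRCm38.p6. Distances run between gene midpoints.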

Additional observations from a re-analysis of the deposited data

How the results depend on the processing

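The 137 higher and 155 lower genes became 137 and 150 with median-of-ratios size factors, 147 and 142 with library totals alone, 138 and 149 with a filter at 5 TPM and 112 and 110 without chromosomes 1 and 6. They became 236 and 274 in the joint fit of the 12 libraries, 435 and 398 in DESeq2, 313 and 341 without the filter (30315 genes tested), 463 and 436 in limma with library weights, 55 and 46 in limma on log2(TPM + 1) and 51 and 43 on log2(TPM + 0.1); the cause was not tested. Leaving out 1 library gave 9 to 347 higher and 28 to 224 lower genes. Calls shared with the 292 had the same sign in every alternative, and no named gene changed sign. The median over all genes lay between -0.00321 and 0.0337 on the log2 scale. The lower endoplasmic reticulum and heat shock genes (17 and 12) numbered 26 and 19 in DESeq2, 26 and 20 in limma with library weights and 8 and 5 on log2(TPM + 1); lower surface ectoderm genes (8) numbered 14, 14 and 4, lower tail bud genes (3) 11, 9 and 1, and higher neuron genes (3) 8, 16 and 1.

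A fit with the replicate number as a block gave 162 higher and 198 lower genes, 251 of them shared with the 292. Deviations of same-numbered libraries correlated at -0.009, 0.031 and -0.006, so the numbers do not pair the libraries, and 9 named genes lost and 1 gained its call in that fit. With 3 libraries a genotype, an exact permutation test of 1 gene cannot give a two-sided p under 0.10, so each call rests on the spread shared across genes.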

Other observations

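Genes outside the fixed lists, chosen after their values were seen, add to the groups described. Ctgf, a matricellular protein and YAP target, was at 29.5 ± 3.01 TPM in Lp/Lp and at 17.3 ± 0.925 TPM in Emg1 cKO (SD, n = 3; -0.80 ± 0.09 on the log2 scale, edgeR adjusted p = 0.0052, and 0.051 without Emg1 cKO replicate 2), with wild type at 16.2 ± 0.244 TPM. Serpinh1, the collagen chaperone of the endoplasmic reticulum, was at 1040 ± 13.2 TPM in Emg1 cKO and 1210 ± 44.1 TPM in Lp/Lp (-0.26 ± 0.04, adjusted p = 0.023). Its call was lost without Emg1 cKO replicate 1 (0.060), Emg1 cKO replicate 2 (0.15), Lp/Lp replicate 2 (0.087) or Lp/Lp replicate 3 (0.079). Lrp2, an endocytic receptor that binds Sonic hedgehog, was at 3.94 ± 0.623 TPM against 7.42 ± 0.907 TPM (-0.95 ± 0.12, adjusted p = 0.0082, and 0.065 without Emg1 cKO replicate 2), and it lies within 10 Mb of Cwc22. Gata2, a factor of ventral interneurons and blood progenitors, was at 9.22 ± 0.222 TPM against 4.91 ± 0.724 TPM (0.88 ± 0.12, adjusted p = 0.012, and 0.079 without Emg1 cKO replicate 2).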
